A study of Bos taurus with 16 samples.

Results

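The expression of 10 genes of sphingomyelin synthesis and ceramide production was examined in the skeletal muscle of newborn Hanwoo calves, a Korean beef breed. The genes were SGMS1, SGMS2, SAMD8, SMPD1, CERS1, CERS2, CERS5, CERS6, SPTLC1 and SPTLC2, and all 10 were found among the 34109 gene rows of the tables. They were chosen by the fall of SGMS2 with the maternal diet in both muscles, to which its paralogs and the enzymes that make or use its substrate were added. The diet values of SGMS2 are therefore given as a description, without a test. Both diet groups came from 8 Hanwoo cows kept in the same way. The cows of the control group were fed 100% of their nutritional requirement, and those of the treated group 150%, during mid to late pregnancy. Round muscle, from the hind leg, and sirloin muscle, from the back, were taken from each of the 8 male calves directly after birth, giving 4 groups of 4 libraries. Each group is thus whole muscle of 4 calves. Libraries of the same diet and replicate number in both muscles were taken to be the same calf, which the labels do not state. In whole muscle, fewer cells of a type and less RNA per cell cannot be told apart.

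Ceramide is the hub of sphingolipid metabolism. Serine palmitoyltransferase starts its synthesis in the endoplasmic reticulum, ceramide synthases attach a fatty acyl chain whose length depends on the enzyme, and a desaturase completes the molecule. Sphingomyelin synthases then move a phosphocholine head group from phosphatidylcholine to ceramide, which yields sphingomyelin and diacylglycerol, while sphingomyelinases run the opposite way and release ceramide. In muscle, ceramide is best known for its inhibition of insulin signalling, and sphingomyelin for its place in the plasma membrane and the transverse tubules.

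The libraries held 44473011 to 72446933 counts each, both ends of the range being round control libraries. All 9 skeletal muscle markers were detected in every group, and their summed level lay above 56905 TPM in every library (TPM, a transcript abundance scaled for gene length and depth). Some libraries stood apart in markers of other cell types. The sirloin treated library of replicate 4 held 3962 TPM of the 6 adipocyte markers, against 25.1 to 190.4 TPM in the other 15 libraries. The same library was the highest of all in the endothelial markers, with 198 TPM against 67.5 to 123 TPM elsewhere, and the highest sirloin library in the 6 fibroblast markers, with 740 TPM. The round control library of replicate 2 held 2141 TPM of the 6 fibroblast markers and 72.7 TPM of the 4 tendon markers, against at most 740 TPM and 11.9 TPM elsewhere. The 8 macrophage markers summed to 66.7 TPM in round and 102.5 TPM in sirloin muscle of treated replicate 2, and to at most 39.5 TPM in the other 14 libraries. The 5 red blood cell markers summed to 2.93 to 14.9 TPM in round control, 8.43 to 29.8 TPM in round treated, 2.99 to 10.8 TPM in sirloin control and 11.2 to 26.9 TPM in sirloin treated, and SLC4A1 was at 0 in all 16. HBB and HBA of this list are globin genes, and the study's methods name a library kit with globin removal. The part of globin removal in these sums was not tested. Results that rest on the round control library of replicate 2 or the sirloin treated library of replicate 4 are given below with and without them.

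Ordered by mean TPM over the 16 libraries, CERS2 was the most abundant of the 10 genes with 32.3 ± 8.93 TPM (SD, n = 16). CERS5 followed with 18.0 ± 4.26 TPM, SGMS1 with 14.8 ± 5.17 TPM and SPTLC1 with 11.9 ± 2.25 TPM, and the spreads of these 3 neighbours overlapped. A middle tier was formed by CERS1 with 7.62 ± 3.28 TPM, SAMD8 with 7.24 ± 2.07 TPM, SPTLC2 with 5.02 ± 1.32 TPM and SMPD1 with 3.50 ± 1.196 TPM, again with overlapping spreads. SGMS2 averaged 0.80 ± 0.84 TPM, and CERS6 was the lowest with 0.10 ± 0.08 TPM, which corresponded to only 5 to 108 counts in a library. CERS6 values therefore carry a larger counting error than those of the other genes.

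The sphingomyelin synthase family is described first. SGMS1, the main sphingomyelin synthase of the Golgi apparatus, and SAMD8, an endoplasmic reticulum relative that makes ceramide phosphoethanolamine, made up most of the family's transcripts. SGMS2, the synthase that also acts at the plasma membrane, was a minor member that was lower in the treated calves of both muscles. In round muscle, replicates 1 to 4 of the control group had 0.80, 2.03, 3.04 and 2.03 TPM of SGMS2. The treated calves had 0.14, 0.23, 0.35 and 0.25 TPM, so that the highest treated library was below the lowest control library. The corresponding counts ranged from 131 to 566 in control and from 45 to 112 in treated libraries. The edgeR estimate of the diet difference, treated over control, was -2.84 (SE 0.45) on the log2 scale, which is 7.14-fold lower.

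In sirloin muscle, the control calves had 0.60, 0.55, 0.81 and 0.95 TPM of SGMS2 and the treated calves 0.20, 0.14, 0.40 and 0.30 TPM. The groups again did not overlap, with 118 to 240 counts in control and 29 to 91 in treated libraries. The difference was -1.67 (SE 0.38) on the log2 scale, or 3.19-fold lower. Libraries that did not overlap between the diets were found for 394 of 21677 genes tested in round muscle (1.82%) and for 355 of 21776 in sirloin muscle (1.63%). SGMS2 was selected on this contrast, so nothing is read from these shares. The estimate was -2.92 in round muscle without the control library rich in fibroblast and tendon markers, and -1.76 in sirloin muscle without the treated library with the highest adipocyte and endothelial markers. These values belong to the contrasts that chose SGMS2 and are likewise a description without a test.

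Several markers of other cell types had lower estimates in the treated calves in round muscle, and none of them passed the adjusted threshold with edgeR. The study's own DESeq2 comparison lists CNN1 and the tendon marker TNMD as lower in round muscle at an adjusted p below 0.05. All 4 smooth muscle markers had a lower estimate, with summed levels of 149 to 254 TPM in control and 86.1 to 194 TPM in treated libraries, and CNN1 had a log2 difference of -1.76 (edgeR adjusted p = 0.196). So did 4 of 4 tendon markers, at 1.85 to 72.7 TPM in control and 4.53 to 6.78 TPM in treated libraries, and 5 of 6 fibroblast markers, at 329 to 2141 TPM and 268 to 503 TPM. The upper control values of both lists were those of replicate 2. Control replicates 1, 3 and 4 held 1.85, 5.03 and 4.81 TPM of the tendon markers, and 329, 329 and 354 TPM of the fibroblast markers. Without replicate 2, the control sums thus did not lie above the treated ones, and marker estimates without it are not given. In sirloin muscle, 9 of 9 skeletal muscle markers and 4 of 4 tendon markers had a lower estimate in treated calves, with median log2 differences of -0.34 and -0.88. So had 3 of 4 smooth muscle markers there, and 4 of 6 adipocyte markers in round muscle. Other lists went the other way. Higher in round muscle were 7 of 8 macrophage, 4 of 4 tested red blood cell, 5 of 8 endothelial and 6 of 9 skeletal muscle markers. Higher in sirloin muscle were 7 of 8 macrophage, 4 of 4 tested red blood cell and 6 of 8 endothelial markers. There, 4 of 6 fibroblast and 5 of 6 adipocyte markers were higher as well. The part of the cell composition of the samples in the SGMS2 difference was not tested.

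The paralogs overlapped between the diets in both muscles. SGMS1 in round muscle was at 9.89, 13.6, 19.4 and 14.1 TPM in control calves and at 10.6, 13.4, 13.1 and 12.6 TPM in treated calves. All 4 treated libraries lay inside the control range, and the log2 difference was -0.28 (SE 0.24, edgeR adjusted p = 0.892). In sirloin muscle, SGMS1 was at 11.6, 11.03, 29.96 and 12.6 TPM in control calves and at 12.3, 16.8, 22.3 and 13.8 TPM in treated calves. Control replicate 3 stood far above the other 3 control libraries, and the log2 difference of -0.17 (SE 0.35, edgeR adjusted p = 1.00) became 0.31 without it.

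SAMD8 showed 3.25, 8.53, 10.4 and 8.04 TPM in round control and 5.28, 8.19, 5.99 and 6.71 TPM in round treated libraries. In sirloin muscle it showed 3.92, 6.20, 9.57 and 7.501 TPM in control and 6.43, 9.33, 9.75 and 6.80 TPM in treated libraries. Control replicate 1 was the lowest library of its group in both muscles for SAMD8, and it was also the lowest round control library for SGMS1 and SGMS2. The log2 differences of SAMD8 were -0.30 (SE 0.31, edgeR adjusted p = 0.914) in round and 0.07 (SE 0.27, edgeR adjusted p = 1.00) in sirloin muscle. Neither exceeded the spread between calves. The round difference of SAMD8 moved with single control calves. It was -0.54 without control replicate 1 (unadjusted p = 0.0477, edgeR adjusted p = 0.788) and -0.09 without control replicate 3.

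**Figure D1:**
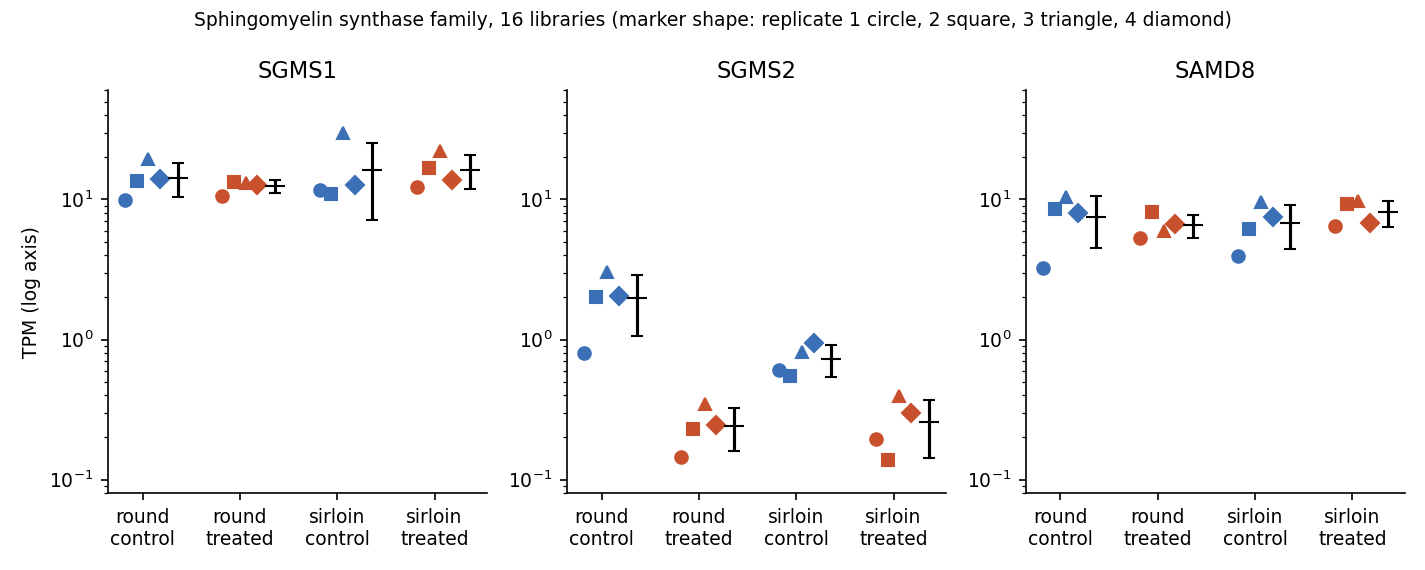
TPM of SGMS1, SGMS2 and SAMD8 in each of the 16 libraries on a log axis, by muscle and maternal diet (blue control, red treated), with the group mean and SD (n = 4) in black. For SGMS2 the treated libraries lie below all control libraries of the same muscle (round at most 0.35 against at least 0.80 TPM), while for SGMS1 and SAMD8 the diets overlap.

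The same pattern can be expressed as the share of SGMS2 in the summed TPM of SGMS1, SGMS2 and SAMD8. This share was 7.95% ± 1.52 (SD, n = 4) in round control and 1.25% ± 0.38 in round treated libraries. In sirloin muscle it was 3.33% ± 1.06 in control and 1.05% ± 0.39 in treated libraries. SGMS1 remained the leading paralog throughout, with mean shares between 61.2% and 67.0%, and SAMD8 contributed between 29.6% and 33.9%. Per library, SGMS1 exceeded SGMS2 by 6.38- to 12.3-fold in round control and by 37.9- to 73.3-fold in round treated muscle. In sirloin muscle, the ratio was 13.3 to 37.1 in control and 46.1 to 121 in treated libraries.

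SGMS2 was also compared between the scales of the tables. Counts per TPM should be nearly constant for a gene once differences between libraries are removed, and for SAMD8, SMPD1, CERS5, SPTLC1 and SPTLC2 the highest library was at most 1.01 times the lowest. For SGMS2 it was 1.48 times the lowest, a spread larger than that of 96.8% of the 11293 genes compared, and for CERS2 it was 1.38 times. Relative to the gene's mean, SGMS2 had 0.81 to 0.94 counts per TPM in round control and 1.05 to 1.196 in round treated libraries. In sirloin muscle the diets overlapped, with 0.92 to 1.11 in control and 0.87 to 1.13 in treated libraries. The log2 ratio of the treated to the control mean of SGMS2 in round muscle was -3.03 in TPM and -2.86 in TMM-normalised CPM (counts per library total after scaling by edgeR's TMM factors), and in sirloin muscle -1.497 in TPM and -1.67 in TMM-normalised CPM. Whether the transcript forms of SGMS2 differed between the libraries was not tested.

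SMPD1 encodes acid sphingomyelinase, the lysosomal enzyme that returns sphingomyelin to ceramide. Its level in round muscle was 3.71, 5.30, 1.86 and 1.74 TPM for the control libraries and 5.09, 4.90, 3.29 and 2.58 TPM for the treated ones. Sirloin muscle showed 3.38, 4.03, 2.74 and 1.48 TPM under the control diet and 3.95, 4.86, 3.55 and 3.61 TPM under the treated diet. The groups overlapped in both muscles, and the log2 difference was 0.27 in each (SE 0.38 in round, 0.33 in sirloin muscle, edgeR adjusted p = 0.959 and 0.972). Without the round control library of replicate 2, the highest of its group for SMPD1, the round difference was 0.49 (edgeR adjusted p = 0.796), and it was as low as 0.08 without treated replicate 1.

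Among the ceramide synthases, CERS2, which attaches very long acyl chains, contributed 50.6% to 60.8% of the summed ceramide synthase TPM on average in the 4 groups. CERS5, which prefers palmitoyl chains, contributed 27.7% to 32.9%, and CERS1, the stearoyl-specific enzyme known from skeletal muscle and brain, 10.1% to 14.8%. CERS4 made up 1.13% to 1.75% and CERS6, a close relative of CERS5, at most 0.20%. CERS3, known from skin and testis, had at most 3 counts in any library.

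CERS2 was at 31.4, 38.7, 29.2 and 22.6 TPM in round control and at 21.3, 36.2, 29.4 and 24.1 TPM in round treated libraries, with overlapping groups. In sirloin muscle it was at 31.7, 26.2, 24.9 and 31.6 TPM in control and at 34.3, 48.1, 33.0 and 54.4 TPM in treated libraries. The sirloin groups did not overlap in TPM, but they overlapped in CPM, where control libraries reached 50.6 and treated libraries started at 45.8. The log2 difference in sirloin muscle was 0.39 (SE 0.22, unadjusted p = 0.0990, edgeR adjusted p = 0.876). It fell to 0.19 without the treated library with the highest adipocyte and endothelial markers, which also had the highest CERS2 level, and was 0.54 with limma on log2(TPM + 0.1) (unadjusted p = 0.0231, adjusted p = 0.850). In round muscle the log2 difference was -0.12 (SE 0.20, edgeR adjusted p = 0.969).

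CERS6 was at 0.04, 0.18, 0.09 and 0.10 TPM in round control and at 0.12, 0.05, 0.11 and 0.12 TPM in round treated libraries. In sirloin muscle it was at 0.02, 0.09, 0.03 and 0.09 TPM in control and at 0.10, 0.06, 0.08 and 0.37 TPM in treated libraries. The single high value was 108 counts in treated replicate 4, the library with the highest adipocyte and endothelial markers, where the other 3 treated libraries had 13 to 24 counts. The log2 difference in sirloin muscle of 1.203 (SE 0.70, edgeR adjusted p = 0.876) was 0.30 (SE 0.64) without this library, and the part of transcripts from adipocytes or endothelial cells in it was not tested. In round muscle the log2 difference was -0.07 (SE 0.57, edgeR adjusted p = 0.996), and it was 0.21 without control replicate 2 and 0.17 without treated replicate 2.

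CERS5 was at 16.04, 21.0, 10.3 and 9.89 TPM in round control and at 20.2, 17.0, 15.7 and 15.8 TPM in round treated libraries. In sirloin muscle CERS5 was at 18.0, 21.1, 19.6 and 16.2 TPM in control and at 24.1, 25.3, 21.4 and 17.1 TPM in treated libraries. The log2 differences were 0.19 (SE 0.26) and 0.05 (SE 0.20), within the spread between calves, and the round difference was 0.31 without control replicate 2.

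CERS1 was at 5.13, 10.04, 3.02 and 3.50 TPM in round control and at 10.47, 9.24, 5.09 and 5.31 TPM in round treated libraries. In sirloin muscle CERS1 was at 5.63, 14.4, 8.57 and 5.78 TPM in control and at 13.2, 7.22, 6.34 and 9.05 TPM in treated libraries. Its log2 differences were 0.40 (SE 0.38, edgeR adjusted p = 0.895) and -0.11 (SE 0.35, edgeR adjusted p = 1.00). The round difference of CERS1 was 0.72 (SE 0.36, unadjusted p = 0.0692, edgeR adjusted p = 0.788) without control replicate 2, the highest library of its group, and 0.16 without treated replicate 1. The growth factor gene GDF1 neighbours CERS1 in the cattle annotation and had 86 to 358 counts, so part of the reads of either gene may be shared.

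SPTLC1 and SPTLC2 encode the long-chain base subunits of serine palmitoyltransferase. SPTLC1 was at 11.2, 11.1, 12.9 and 12.7 TPM in round control and at 8.41, 10.6, 11.9 and 12.4 TPM in round treated libraries. In sirloin muscle SPTLC1 was at 10.3, 8.23, 12.9 and 14.3 TPM in control and at 9.94, 12.4, 13.7 and 17.3 TPM in treated libraries. These ranges overlapped, and the log2 differences were -0.25 (SE 0.23) and 0.04 (SE 0.25).

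SPTLC2 was at 7.27, 7.13, 5.71 and 3.13 TPM in round control and at 4.56, 4.67, 5.62 and 3.20 TPM in round treated libraries. In sirloin muscle SPTLC2 was at 5.87, 4.51, 3.79 and 3.41 TPM in control and at 4.49, 5.50, 6.74 and 4.76 TPM in treated libraries. The log2 difference was -0.45 in round (SE 0.32, edgeR adjusted p = 0.864) and 0.10 in sirloin muscle (SE 0.28, edgeR adjusted p = 1.00). Together with SPTLC3, an alternative subunit with shares of 4.67% to 6.44%, SPTLC1 supplied 64.3% to 68.1% and SPTLC2 26.9% to 30.6% of the transcripts of these subunits.

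**Figure D2:**
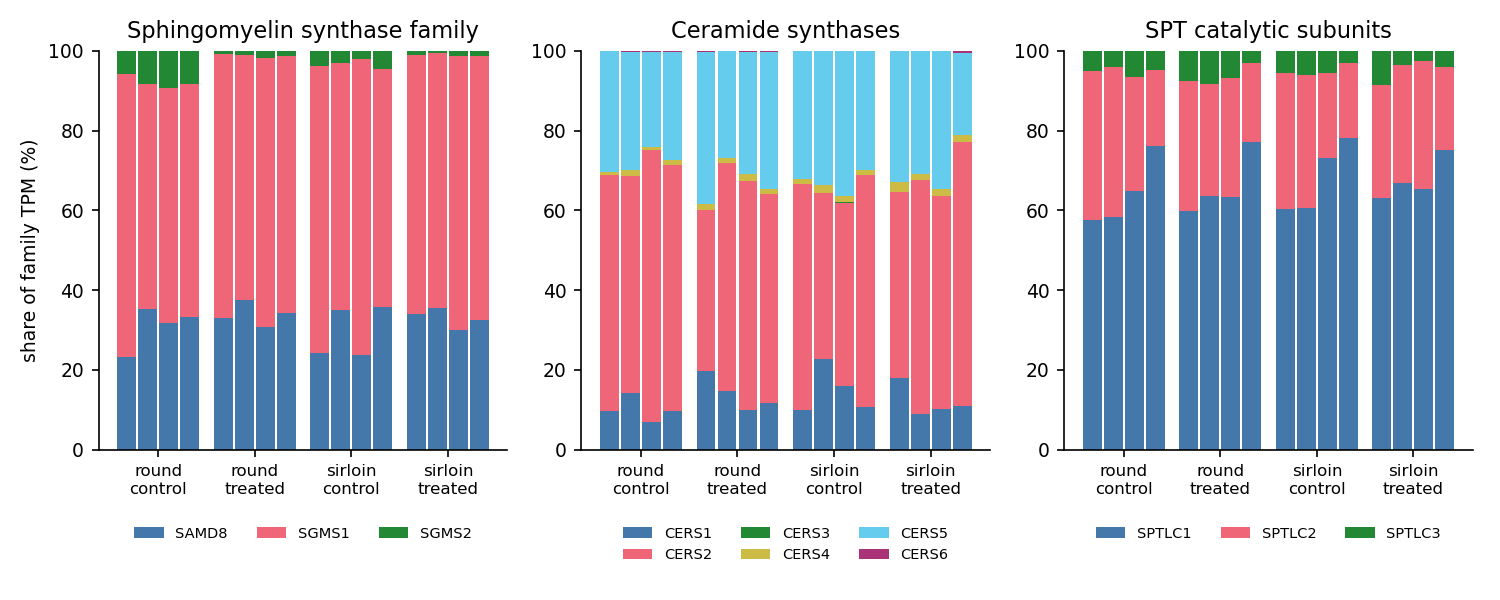
Share of each gene in the summed TPM of its family (percent) for each library, 4 bars per group in replicate order, for the sphingomyelin synthase family, the ceramide synthases and the subunits SPTLC1 to SPTLC3. The SGMS2 share falls from a mean of 7.95% to 1.25% in round and from 3.33% to 1.05% in sirloin muscle, while the shares of the other genes overlap between the diets.

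Across the 9 genes other than SGMS2, none passed an edgeR adjusted p of 0.05 for the diet in either muscle, and none did with DESeq2 or limma. None of the 9 had an unadjusted edgeR p below 0.05 or non-overlapping CPM in either muscle. Over all genes tested, 4 passed the adjusted threshold in round muscle (0.0185%) and 2 in sirloin muscle (0.00918%), and an unadjusted p below 0.05 was found for 956 (4.41%) and 852 (3.91%). With DESeq2, the adjusted threshold was passed by 46 and 13 genes. The median log2 difference of the 9 genes was -0.12 in round and 0.07 in sirloin muscle, against 0.02 and 0.03 over all genes tested.

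**Figure D3:**
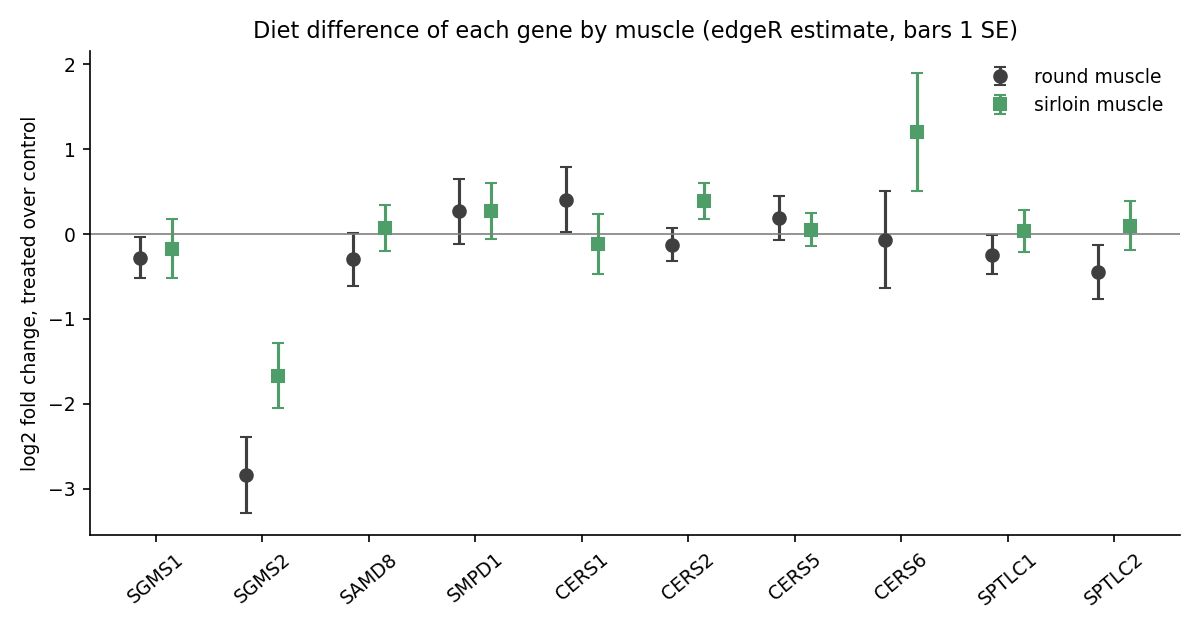
log2 fold change of treated over control calves (edgeR estimate, vertical axis; bars 1 SE) for the 10 genes in round (circles) and sirloin muscle (squares). SGMS2 stands at -2.84 and -1.67, and CERS6 in sirloin muscle at 1.203 with the widest bar, whereas the estimates of the other genes stay between -0.45 and 0.40.

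Whether the diet difference itself depended on the muscle was examined by the interaction of diet and muscle over all 16 libraries. For SGMS2 the log2 difference in round muscle minus that in sirloin muscle was -1.19 (SE 0.57), which is given without a test. Of the other 9 genes, none passed the adjusted threshold, as was the case for 0 of 22877 genes (0%), and none had an unadjusted edgeR p below 0.05, against 637 of all genes (2.78%). DESeq2 and limma each gave 1 of the 9 genes an unadjusted p below 0.05 and none an adjusted p below it. The unadjusted shares over all genes with these tools are not given, so nothing is read from that count. In the fit without the calf as a block the smallest p was that of CERS2, with -0.54 (SE 0.27, unadjusted p = 0.0644, edgeR adjusted p = 1.00), and it was -0.27 without the calf of treated replicate 4. CERS6 had -1.31 (SE 0.90), which was -0.51 (SE 0.87) without that calf. With the calf as a block, SPTLC2 had the smallest p of the 9 genes, at -0.56 (SE 0.25, unadjusted p = 0.0441, edgeR adjusted p = 1.00), and CERS2 had -0.51 (SE 0.26, unadjusted p = 0.0752). The SGMS2 value was -1.07 (SE 0.38) in that fit.

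Round and sirloin muscle were then compared over both diets, a contrast that did not choose the genes. SGMS2 was the only one of the 10 genes with an unadjusted edgeR p below 0.05, at a log2 difference of 0.77 (SE 0.29, unadjusted p = 0.0160), but it did not pass after adjustment over all genes (edgeR adjusted p = 0.696, with 0.136 to 1.00 under the alternatives). Over all genes, 1447 of 22877 had an unadjusted p below 0.05 (6.33%) and 14 an adjusted one (0.0612%). The round-minus-sirloin difference of SGMS2 in log2 CPM was 0.26, 1.74, 1.67 and 1.25 in the 4 control calves and -0.17, 0.64, 0.25 and 0.004 in the 4 treated calves. Round muscle was thus higher in 7 of 8 calves in CPM, but in 5 of 8 in TPM, where the round-to-sirloin ratio was 1.33, 3.69, 3.76 and 2.14 for the control calves, against 0.74, 1.67, 0.87 and 0.82 for the treated calves. No marker of the other cell types passed the adjusted threshold between the muscles with edgeR. All 4 smooth muscle markers were estimated higher in round muscle (median log2 difference 0.74, 3 with an unadjusted edgeR p below 0.05), with summed levels of 86.1 to 254 TPM in round and 61.8 to 149 TPM in sirloin libraries. All 6 adipocyte markers were estimated lower in round muscle, 4 of them with an unadjusted edgeR p below 0.05, at 25.1 to 190.4 TPM in round libraries, 3962 TPM in sirloin treated replicate 4 and 61.8 to 121 TPM in the other sirloin libraries. The part of cell composition in the muscle differences of the 10 genes was not tested.

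With the calf as a block, 109 of all genes passed the adjusted threshold (0.476%) and 2555 the unadjusted one (11.2%). In this paired fit SGMS2 had a log2 difference of 0.72 (SE 0.19, unadjusted p = 0.00273, edgeR adjusted p = 0.136). CERS5 and CERS1, both lower in round muscle in 7 of 8 calves in CPM, had log2 differences of -0.32 (SE 0.12, unadjusted p = 0.0189, edgeR adjusted p = 0.306) and -0.41 (SE 0.16, unadjusted p = 0.0277, edgeR adjusted p = 0.356). Thus 3 of the 10 genes had an unadjusted p below 0.05 and none an adjusted one. Without the block, the differences of CERS5 and CERS1 were -0.30 (SE 0.15, edgeR adjusted p = 0.811) and -0.40 (SE 0.27, edgeR adjusted p = 0.920). In CPM, none of the 10 genes moved one way in all 8 calves, which 575 of all genes did (2.51%). In TPM, CERS5 was lower in round muscle in all 8 calves, and the share of all genes that moved one way was not counted in TPM. The remaining genes differed between the muscles by between -0.23 (SGMS1) and 0.17 (CERS6) on the log2 scale.

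**Figure D4:**
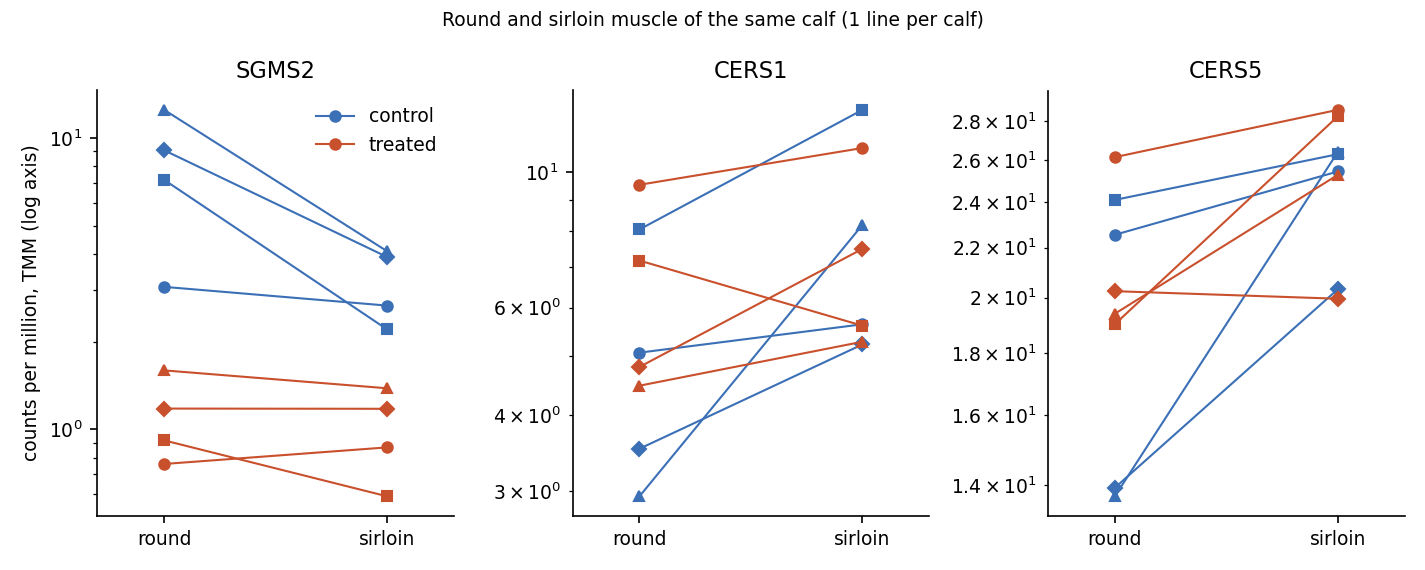
TMM-normalised CPM (log axis) of SGMS2, CERS1 and CERS5 in round and sirloin muscle, with 1 line per calf (blue control, red treated). SGMS2 is higher in round muscle in 7 of 8 calves, with the steepest lines in control calves, and CERS1 and CERS5 are lower in round muscle in 7 of 8 calves.

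The wider sphingolipid pathway was represented by 47 further genes, of which 45 had counts in round and 44 in sirloin muscle. ASAH2, a neutral ceramidase, and SGPP2, a sphingosine phosphate phosphatase, were at 0 counts in all 16 libraries. No gene of the list passed an edgeR adjusted p of 0.05 in any of the 4 comparisons, nor with DESeq2 or limma. An unadjusted edgeR p below 0.05 was found for 1 gene for the diet in round muscle (4.41% of all genes), 1 in sirloin muscle (3.91%), 1 for the muscles (6.33%) and 4 for the interaction (2.78%). DESeq2 gave 3, 0, 2 and 2. Its shares over all genes are not given, so nothing is read from these counts. The median log2 diet difference of the list was -0.05 in round and 0.10 in sirloin muscle, near those of all genes.

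In round muscle the smallest p was that of DEGS1, the desaturase that turns dihydroceramide into ceramide. It was at 24.3, 33.1, 43.4 and 32.8 TPM in control and at 18.4, 21.8, 29.2 and 20.6 TPM in treated libraries, with a log2 difference of -0.66 (SE 0.25, unadjusted p = 0.0206, edgeR adjusted p = 0.864). In sirloin muscle it was at 14.8 to 27.8 TPM in control and at 21.4 to 33.3 TPM in treated libraries. The interaction was -0.85 (SE 0.35, unadjusted p = 0.0243, edgeR adjusted p = 1.00). SMPDL3A, a relative of acid sphingomyelinase, and SPHK1, a sphingosine kinase, followed in round muscle with log2 differences of -0.78 (SE 0.38) and -0.95 (SE 0.47, edgeR adjusted p = 0.864 for both), which were -0.95 and -1.12 without control replicate 2 (edgeR adjusted p = 0.788 for both).

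In sirloin muscle the 3 smallest p belonged to SMPD3, a neutral sphingomyelinase, S1PR3, a sphingosine phosphate receptor, and CERK, the ceramide kinase. SMPD3 was at 0.02 to 0.10 TPM in control libraries and at 0.13, 0.07, 0.06 and 1.37 TPM in treated libraries. CERK was at 1.24 to 1.34 TPM in control libraries and at 1.25, 1.64, 1.25 and 7.14 TPM in treated libraries, and S1PR3 at 0.68 to 1.61 TPM and at 1.05, 2.76, 1.32 and 5.16 TPM. In each case treated replicate 4, the library with the highest adipocyte and endothelial markers, was the highest of all 16. The log2 difference of SMPD3 of 2.56 (SE 1.03, edgeR adjusted p = 0.876) was 0.37 (SE 0.74) without it, that of CERK went from 0.96 to -0.08 and that of S1PR3 from 0.89 to 0.30. The interaction of SMPD3 likewise went from -2.72 to -0.25 and that of SPHK1, which had 2.80 TPM in this library, from -1.66 to -1.04. The part of transcripts from adipocytes or endothelial cells in these values was not tested. The fourth interaction gene, CERS3, had at most 3 counts per library.

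**Figure D5:**
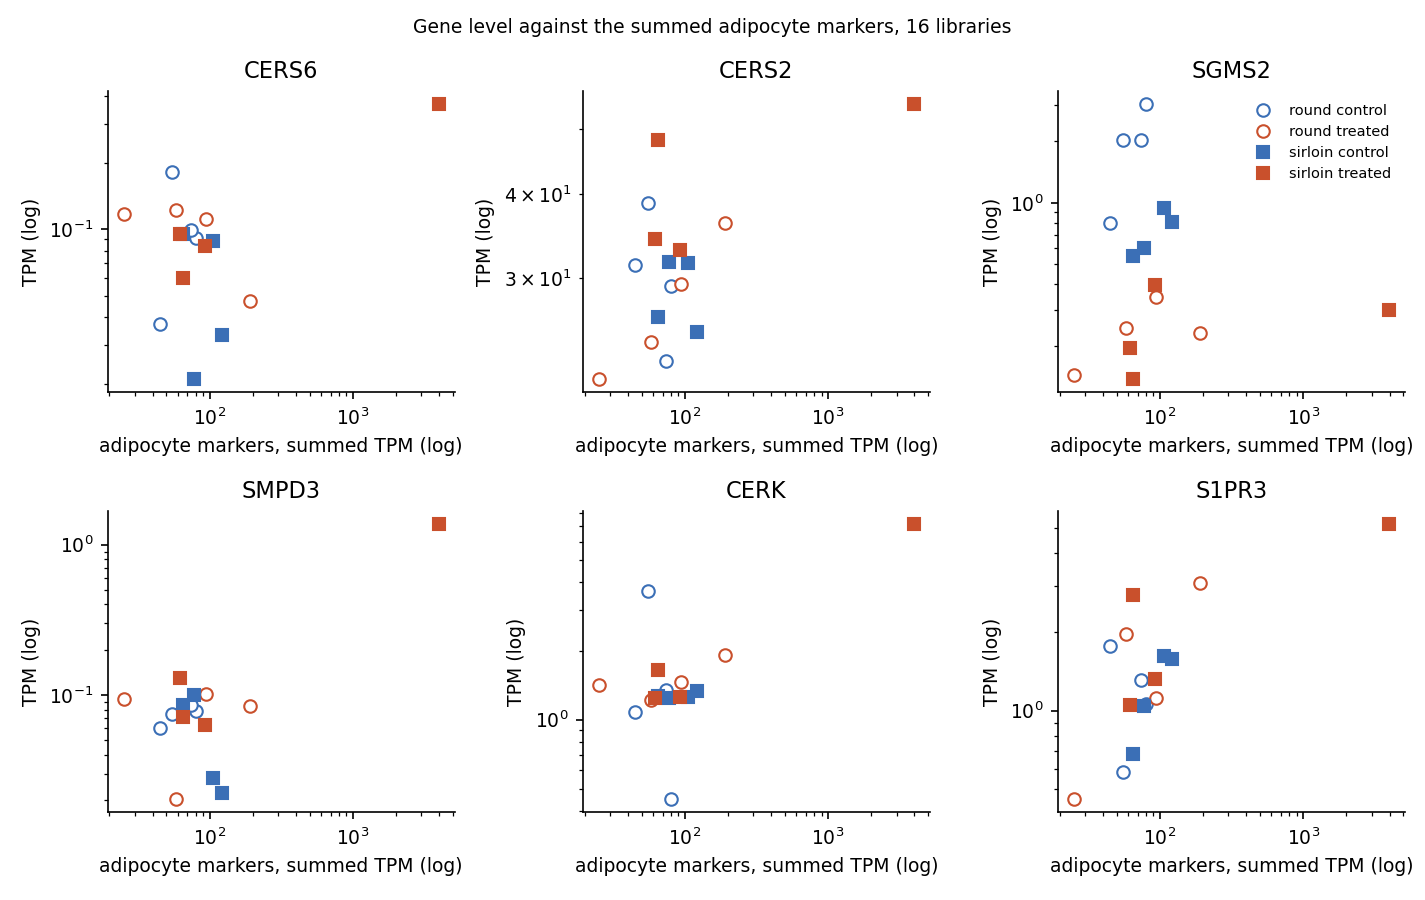
TPM of CERS6, CERS2, SGMS2, SMPD3, CERK and S1PR3 (vertical, log axis) against the summed TPM of the 6 adipocyte markers (horizontal, log axis) in the 16 libraries (open circles round, filled squares sirloin; blue control, red treated). The sirloin treated library of replicate 4 at 3962 TPM is the highest for all of these genes except SGMS2, for which it lies among the treated libraries at 0.30 TPM.

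Between the muscles, ORMDL3, an inhibitor of serine palmitoyltransferase, had the smallest p of the list with a log2 difference of -0.60 (SE 0.23, unadjusted p = 0.0187, edgeR adjusted p = 0.716) and was lower in round muscle in 6 of 8 calves. CERS4 was lower in round muscle in 8 of 8 calves (log2 difference -0.54, SE 0.27) and UGCG, which makes glucosylceramide, was higher in 7 of 8 (0.54, SE 0.29). The ceramide transfer protein CERT1, named after its values were seen, was also lower in round muscle in 8 of 8 calves (-0.48). In CPM, 2 of the 45 genes of the list moved one way in all 8 calves, against 575 of 22877 over all genes (2.51%). Nothing is read from this small count. With the calf as a block, 8 of the 45 genes of the list had an unadjusted edgeR p below 0.05, against 11.2% of all genes, and none an adjusted one. The smallest of these was that of CERT1, at -0.45 (SE 0.13, unadjusted p = 0.00528, edgeR adjusted p = 0.175).

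Finally, the variation of SGMS2 among calves of one group was compared with that of other genes, as a description. Over the 16 libraries, log2 CPM values were taken as deviations from their 4 group means, so that the diet and muscle differences were removed. Among 11393 named genes with a mean of at least 1 CPM, the highest Pearson correlations with SGMS2 were those of C22H3orf62 (r = 0.94), LYSMD3 (r = 0.93), FGF1 (r = 0.93), TMTC3 (r = 0.91) and MAGEH1 (r = 0.90). Their log2 diet differences in round and sirloin muscle were 0.36 and 0.10 for C22H3orf62, -0.47 and -0.26 for LYSMD3, 0.38 and -0.64 for FGF1, -0.71 and -0.26 for TMTC3 and -0.45 and -0.37 for MAGEH1. Of the other 9 genes, SAMD8 had r = 0.70, SGMS1 r = 0.60 and SPTLC1 r = 0.57, which placed them at ranks 349, 825 and 1034 of the 11393 genes, and CERS5 and SMPD1 had r = -0.69. Within round and sirloin muscle alone, the values were 0.86 and 0.42 for SAMD8, 0.88 and 0.51 for SGMS1, and 0.47 and 0.75 for SPTLC1. The 16 points are 8 calves sampled in 2 muscles, and deviations of a calf were shared between its muscles.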

How the data were processed

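RNA of 16 muscle libraries (4 calves per diet, 2 muscles each) was sequenced on an Illumina instrument. The deposited tables hold raw read counts per NCBI gene ID and, in separate files, TPM values made by the authors, scaled for gene length and depth. The submitters' processing notes name Trimmomatic, STAR, featureCounts and ARS-UCD1.2, whereas the study's methods name HISAT2, Bowtie2 and StringTie, and poly(A) selection stands against removal of ribosomal RNA and globin. Which of them made the files is not settled here, so strand handling is unknown. Fold change and p-value columns of the authors' own comparisons were not used. Symbols came from the RefSeq annotation of another build (30762 of 34109 IDs, 90.2%), for names only.

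Counts were tested in R 4.3.3 with edgeR 4.0.16 (quasi-likelihood, TMM, every gene with at least 1 count, Benjamini-Hochberg over all genes). Each muscle was fitted alone for the diet, and all 16 libraries in 4 groups for the muscle and interaction contrasts. SE is the log2 fold change over the square root of F. The tests were tried on simulated counts in which 200 genes with a mean above 1 CPM changed by 2 on the log2 scale. Smaller changes and lower genes such as CERS6 were not simulated. Of the changed genes, 78.5% were recovered for the round diet, 84.5% for the sirloin diet and 95% between the muscles. For the interaction only 45.5% were recovered. Unchanged genes were also called, 12 for the round diet, 19 for the sirloin diet, 9 between the muscles and 13 for the interaction. Alternatives were DESeq2 1.42.0, another normalisation and filter, a joint fit, a replicate block, limma 3.58.1 on log2(TPM + 0.1) or log2(TPM + 1), and leaving out each calf. The calf pairing comes from shared replicate numbers, and deviations from group means correlated at 0.31 to 0.76 within all 8 calves. Between the muscles of different calves they correlated at -0.52 to 0.46. Across the diets, same-numbered libraries correlated at -0.28 to 0.29. The members and all lists were chosen with earlier results of these data known. Named were the 10 members, pathway genes past the threshold or with the 3 smallest p per comparison, the CERS and SPTLC genes where shares are given, and the 5 genes most like SGMS2. Depth and 4 calves per group limit precision, most of all for CERS6.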

Additional observations from a re-analysis of the deposited data

Results flagged for a closer look

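Within groups of 4 libraries, 3 of the 40 gene and group combinations held a library whose gap to its neighbour passed Dixon's 95% limit, and chance alone gives about 1 in 20. SGMS1 in sirloin control replicate 3 was at 29.96 TPM, where the next library had 12.59 TPM. CERS6 in round treated replicate 2 was at 0.047 TPM, below the next value of 0.111 TPM. CERS6 in sirloin treated replicate 4, the library with 3962 TPM of adipocyte markers, was at 0.367 TPM, above the next value of 0.095 TPM. The part of cell composition in these values was not tested.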

How the results depend on the processing

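Under any alternative, no adjusted call changed for the 9 members other than SGMS2 or for the pathway list. For SGMS2 the same held between the muscles, and its diet and interaction calls were not examined. Across the diet, muscle and interaction contrasts, 542 of 580 alternative log2 differences of the members kept their direction. These refits reuse the same 16 libraries and include the diet contrasts that chose SGMS2, so the tally is a description only. The SGMS2 diet difference stayed negative throughout. With limma it was -1.21 in round muscle on log2(TPM + 1), and in sirloin muscle -1.24 on log2(TPM + 0.1), with or without a minimum mean TPM of 0.1, and -0.46 on log2(TPM + 1). Larger pseudocounts shrink differences of low genes by construction. The replicate block across diets, whose numbers share nothing but a label, left the SGMS2 differences within 1 SE.

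Differences near 0 changed sign, and the cause was not tested. With limma on log2(TPM + 0.1) they became 0.0072 (CERS6, round diet, also with the minimum mean), 0.10 (SGMS1, sirloin diet) and 0.11 (CERS1, sirloin diet), the last pair with or without the minimum mean, and on log2(TPM + 1) 0.088 and 0.094. For the muscles they became -0.10 (SAMD8) and -0.0012 (SMPD1), and the calf block gave -0.016 for SAMD8. Leaving out a calf gave, for the round diet, -0.31 to 0.21 (CERS6). For the sirloin diet it gave -0.37 to 0.31 (SGMS1), -0.093 to 0.31 (SAMD8), -0.37 to 0.21 (CERS1), -0.029 to 0.15 (CERS5), -0.11 to 0.15 (SPTLC1) and -0.040 to 0.32 (SPTLC2). For the muscles it gave -0.060 to 0.074 (SAMD8), and for the interaction -0.40 to 0.037 (SGMS1), -0.20 to 0.083 (SMPD1) and -0.020 to 0.24 (CERS5).

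Genes called over the whole table depended on the tool. The diet calls, 4 in round and 2 in sirloin muscle, were 46 and 13 with DESeq2, 2 and 0 with the replicate block, 1 and 1 with limma on log2(TPM + 0.1), 0 and 0 on log2(TPM + 1), and 1 in sirloin muscle with the minimum mean. Leaving out a calf gave 0 to 3 in round and 0 to 1 in sirloin muscle. In round muscle the count was 0 without control replicate 4 or treated replicate 3, and in sirloin muscle 1 without control replicate 3 and 0 without any single other calf. The 14 muscle calls were 83 with DESeq2 and 109 with the calf block, which gave 1 interaction call. Of the 50 genes most like SGMS2, ranked here with another offset added to CPM than in the Results, 28 were shared with Spearman's rho. With round muscle alone 17 were shared, and with sirloin muscle alone 8.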
